A study of Caenorhabditis elegans with 10 samples.

Results

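Gene expression was described within 1 group of the study, the 5 libraries of Caenorhabditis elegans dauers that carry mutations in both chd-7 and daf-2. The group was chosen by its genotype label, which 5 of the 10 libraries of the series carry. All 5 share the chd-7 allele gk290 and the daf-2 allele e1370, and are called replicates 1 to 5 of chd-7;daf-2 below. The chd-7 gene encodes a chromatin-remodelling ATPase, and daf-2 encodes the insulin-like receptor, whose e1370 allele is temperature-sensitive. The dauers were collected and frozen after 10 days at 25°C, starting from synchronized eggs. RNA was extracted with TRIzol and made into cDNA libraries with an NEBNext Ultra II RNA kit. No treatment was applied, and the labels do not say whether the 5 libraries came from separate cultures. The spread between them may therefore be partly technical. Since they form a single group, the values are a description, with no test between groups.

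The dauer is an alternative larval stage entered under stress, in which worms stop feeding and developing and can survive for months. Insulin, TGF-beta and steroid hormone signals together decide whether a larva enters it. Dauers seal their mouth, build a special cuticle, hold the germline in arrest and live on stored fat, which the glyoxylate cycle and gluconeogenesis turn into sugar.

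Each library was deposited as a table of read counts for 20222 genes. Levels are given as CPM, a gene's count per 1000000 counts of the library's genes. The totals of replicates 1 to 5 were 12018804, 11723312, 10572355, 9001227 and 14997608 counts. A count of 0 allows up to 3 counts, or 0.200 to 0.333 CPM per library, for counting error only. Of all reads in a table, those that aligned to several places and were counted for no gene made up 11.2% of replicate 1 and 7.42% to 7.66% of the other 4. Reads outside annotated genes made up 5.70% of replicate 1, 4.03% of replicate 2 and 3.03% to 3.24% of the other 3. Replicates 1 and 2 were closest to each other, and so were replicates 3 and 4. A chi-square of the counts per degree of freedom, over 9658 genes, was 7.04 for replicates 1 and 2 and 7.47 for replicates 3 and 4. It was 28.4 to 65.4 for the other 8 pairs of libraries. No pair agreed within sampling noise, for which the value is near 1, so all 5 were kept as separate libraries. If close pairs share a culture, the group holds fewer than 5 independent cultures, and this was not tested.

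Genes known for dauers and for adults were read first, as a check on the label. Transcripts of col-2 and col-40, collagens of the dauer cuticle, were present in every library, with the fewest in replicate 4. The col-2 values in replicates 1 to 5 were 20.1, 21.8, 7.28, 2.56 and 16.3 CPM. Those of col-40 were 19.6, 21.2, 10.499, 3.56 and 16.8 CPM, and both genes overlap annotated genes on the other strand. The adult collagen gene col-19 had no read in any library. The small heat shock gene hsp-12.6, a known target of the FOXO factor DAF-16, was at 487, 496, 377, 434 and 224 CPM, with replicate 5 lowest. The chd-7 gene, on chromosome I, was read at 242, 219, 286, 280.3 and 288 CPM. Because gk290 removes a part of the gene and the tables give 1 count per gene, that level is no check of the genotype. Transcripts of daf-2, on chromosome III, were at 207, 163, 221, 227 and 230.2 CPM, with replicate 2 lowest.

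The genes that took the most reads belonged largely to protein folding and translation. A read was found for 18171 genes in at least 1 library and for 14401 genes in all 5. Of the genes, 154 averaged 1000 CPM or more, and together they held 36.5% of the reads. The most reads went to daf-21, which encodes the chaperone HSP90, at 16556, 16422, 12227, 13546 and 12095 CPM in replicates 1 to 5. It was higher in replicates 1 and 2 than in the other 3. Next came brp-1, at 16185, 14596, 12209.6, 12851 and 9259.9 CPM, with replicate 5 lowest. The elongation factor gene eef-1A.1 was at 11673 ± 904 CPM (mean ± SD, n = 5), a value made uncertain by a near-identical copy and an overlapping gene on the other strand. The translocation factor gene eef-2 was steady, at 10872 ± 432 CPM (mean ± SD, n = 5). Among the 12 genes with the highest mean was also alh-8, an aldehyde dehydrogenase gene, at 9872, 9665, 5668, 6471 and 4854 CPM. Replicates 1 and 2 again stood highest. The mitochondrially encoded ctc-3, a subunit of cytochrome c oxidase, was at 4278, 4658, 4619, 4033 and 5601 CPM, with replicate 5 highest and replicate 4 lowest. Per kilobase of annotated exon, the mean levels of eef-1A.1, rps-8, rps-25 and brp-1 led, at 7595, 7393, 7365 and 7217 CPM per kb. Of these, rps-8 and rps-25 encode ribosomal proteins. The 80 cytosolic ribosomal protein genes together took 15.4%, 15.9%, 14.3%, 14.4% and 16.3% of the reads of replicates 1 to 5. None of the 76 with a mean of at least 5 CPM varied 2-fold, and their median coefficient of variation (CV) was 6.50%.

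Most genes varied little. Genes were counted as varying or not where their mean was at least 5 CPM, which 9658 passed. Their median CV was 14%, against 5.33% from counting error alone, and edgeR gave a common biological coefficient of variation of 0.197. The fold range, the highest library over the lowest with values under 3 counts set to 3 counts, had a median of 1.41. A fold range of at least 4 was reached by 197 genes, which is 2.04% of the 9658, and one of at least 2 by 1164 genes (12.1%). Of the 197 genes, 150 averaged under 20 CPM and 15 averaged at least 100 CPM. The count of genes with a 4-fold range fell from 197 to 101 without replicate 4 and to 131 without replicate 5. The myosin gene hum-2 was among the steadiest, at 129.9, 131, 131, 129 and 131 CPM in replicates 1 to 5. The ribosomal protein gene rps-29 was also among the 10 steadiest, at 694, 668, 676, 673 and 680.1 CPM.

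More genes stood apart in replicates 4 and 5 than in the other 3 libraries. A gene was counted as standing apart where 1 library was at least 2-fold above, or below, every other library, which held for 240 genes. Replicate 4 stood above the others in 97 genes (1.0% of the 9658) and below them in 9 (0.0932%). Replicate 5 stood above in 58 genes (0.601%) and below in 62 (0.642%). Replicate 2 stood below in 20 genes (0.207%) and above in none. Replicate 1 stood above in 2 genes (0.0207%) and below in 2 (0.0207%), and replicate 3 above in 1 (0.0104%) and below in 2 (0.0207%). A close partner library holds such counts down. Without replicate 2, replicate 1 stood above in 15 genes and below in 45. Without replicate 1, replicate 2 stood above in 12 and below in 47. Without replicate 4, replicate 3 stood above in 15 and below in 29. A gene that is low elsewhere can pass the mean of 5 CPM through its high library alone. With a median of at least 5 CPM required instead, a filter chosen after the values were seen, replicate 4 stood above in 48 genes, replicate 5 above in 47 and replicate 5 below in 61. With a mean of at least 20 CPM required, the same 3 numbers were 5, 21 and 30, so replicate 4 differed mainly in genes with few reads.

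**Figure D1:**
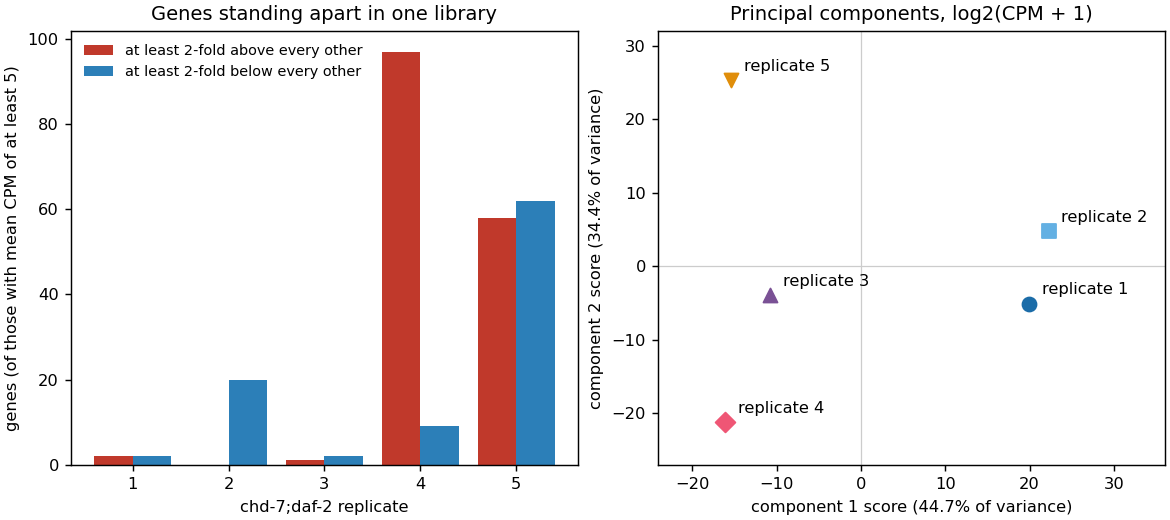
Left, genes standing at least 2-fold above (red) or below (blue) every other chd-7;daf-2 library, by replicate, among 9658 genes; replicate 4 has 97 above and replicate 5 has 58 above and 62 below. Right, scores of the 5 libraries on the first and second principal components of log2(CPM + 1), where replicates 1 and 2 lie at the right and replicates 4 and 5 at opposite ends of the vertical axis.

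The libraries did not order themselves along a single axis. The first principal component of log2(CPM + 1) held 44.7% of the variance, with scores of 19.96 and 22.2 for replicates 1 and 2 against -10.7, -16.1 and -15.3 for replicates 3, 4 and 5. The second component held 34.4% and spread replicate 4 (-21.2) from replicate 5 (25.4). The third held 15.4%, with replicate 3 at its end (18.1). Genes with a fold range of at least 2 were sorted by the largest gap between their libraries on the log2 scale. The largest sets were the 215 genes high in replicate 5 alone (2.23% of the 9658) and the 204 low in replicate 5 alone (2.11%). Next were 168 genes high in replicate 4 alone (1.74%), 129 high in replicates 3, 4 and 5 together (1.34%) and 77 high in replicates 1 and 2 together (0.797%). Genes low in replicate 2 alone numbered 67 (0.694%), and 36 were high in replicates 1, 2 and 5 together (0.373%).

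Tissue and pathway programmes were compared through gene lists. A list's deviation in a library is the median, over its members with a mean of at least 1 CPM, of log2(CPM + 1) minus the gene's mean over the 5 libraries. Over all genes measured that way the same median was between -0.05 and 0.04. The widest ranges of deviations were those of eggshell (3.76), yolk (2.56), uterine lumen (2.504) and germline lists, which were highest in replicate 4. The yolk genes vit-2 and vit-5 passed the mean of 1 CPM only through that library. A pharynx list was highest in replicate 5 and a hypoxia list, drawn up after the values were seen, in replicate 3. Lists of nuclear-encoded respiratory chain, body wall muscle and DBL-1 pathway genes had the narrowest ranges of deviations, at 0.08, 0.09 and 0.10. Under TMM scaling these ranges became 0.17, 0.16 and 0.17, and the DAF-7 pathway list was narrower, at 0.06.

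**Figure D2:**
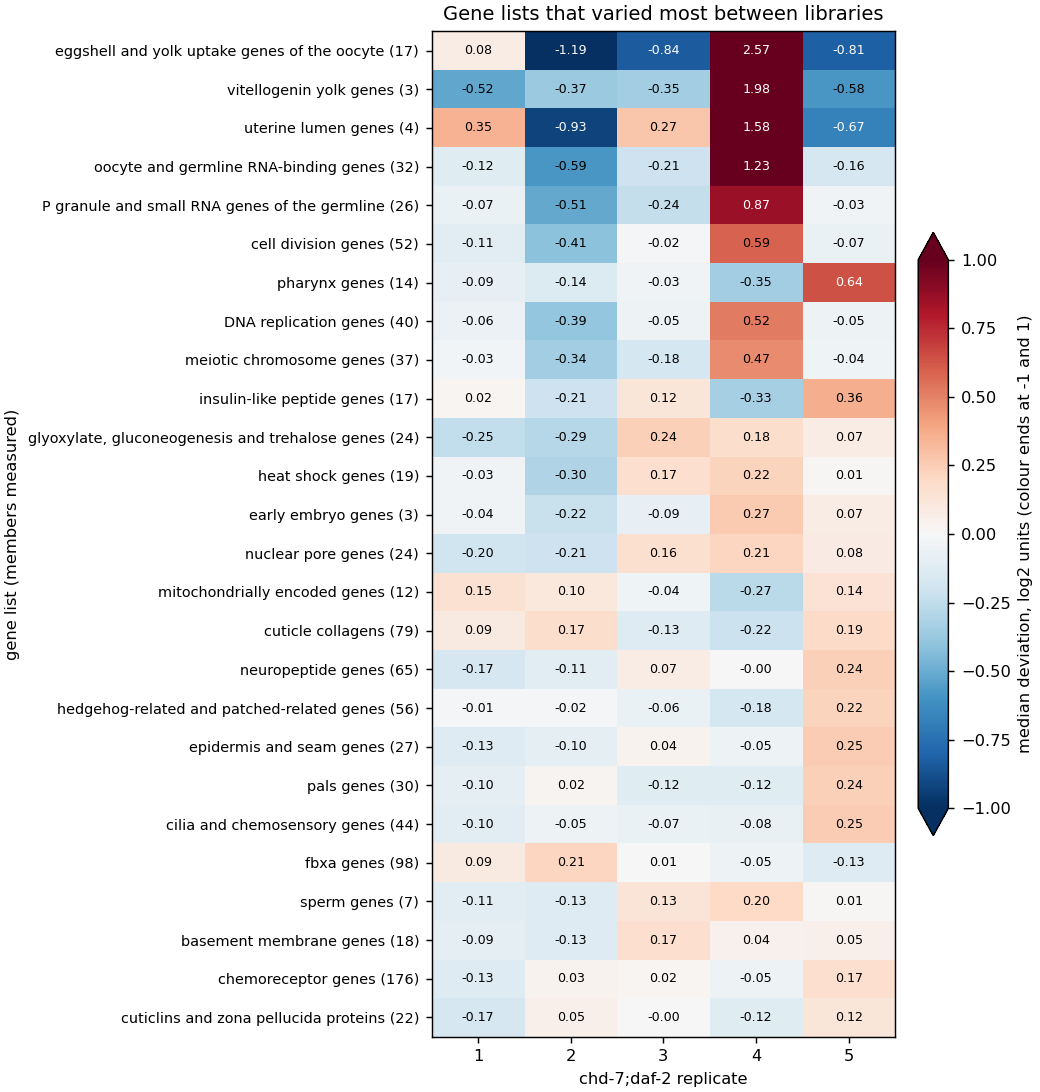
Deviations of the 26 gene lists with the widest range, from -1 (blue) to 1 (red) in log2 units with the value in each cell; columns are the 5 chd-7;daf-2 replicates and the number of measured members is in brackets. The upper lists are red in replicate 4, with 2.57 for the eggshell list, and the pharynx list is red in replicate 5, at 0.64.

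Transcripts of growing oocytes varied widely, and replicate 4 held more of them than any other library. All 17 eggshell and yolk uptake genes of the oocyte had their highest value in replicate 4, against 19.1% of the 9658 genes. The list's deviations in replicates 1 to 5 were 0.08, -1.19, -0.84, 2.57 and -0.81. Without replicate 4 the range of these deviations fell from 3.76 to 1.36. The summed level of the 17 genes was 327, 254, 366, 989 and 345 CPM. The member mbk-2 alone took 222, 201, 305, 306 and 291 CPM of it, which is most of the sum outside replicate 4. Fewer cells of a type and less RNA per cell cannot be told apart in these samples. Of the 13 members with a mean of at least 5 CPM, 11 varied at least 4-fold, against 2.04% of the 9658 genes. However, several passed that mean only through replicate 4.

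The chitin-binding eggshell gene cbd-1 was read at 7.74, 1.19, 1.80, 126 and 1.73 CPM in replicates 1 to 5. Its exact 95% counting interval in replicate 4 was 118.6 to 133 CPM. That library lay 16.3-fold above replicate 1, which in turn was above the remaining 3. The same order of replicates 4 and 1 held for the eggshell proteoglycan gene cpg-1, at 5.24, 1.79, 1.42, 96.2 and 1.87 CPM. The proteoglycan gene cpg-2 was at 11.1, 1.62, 2.93, 135 and 1.60 CPM. A further proteoglycan gene, cpg-3, was at 5.32, 2.05, 2.27, 24.7 and 2.13 CPM. Proteoglycans and chitin make up separate layers of the shell, and the enzymes for chitin shared the pattern. Chitin synthase, encoded by chs-1, was at 3.66, 1.02, 2.18, 36.2 and 1.47 CPM. The aminotransferase gene gfat-2, which supplies the sugar for chitin, was at 2.83, 0.341, 0.568, 31.7 and 0.733 CPM. Replicate 4 was highest and replicate 1 second for both. Proteins of fertilization and of the permeability barrier around the embryo came next. The fertilization gene egg-1 was at 3.24, 0.341, 0.378, 27.996 and 0.400 CPM. The barrier genes perm-2 and perm-4 had 6.16, 0.427, 1.04, 29.6 and 0.133 CPM and 8.24, 1.02, 1.23, 47.1 and 0.600 CPM, respectively. The yolk receptor gene rme-2 was at 3.58, 0.512, 1.04, 45.9 and 0.733 CPM, 12.8-fold higher in replicate 4 than in replicate 1. Of the 13 list members with a mean of at least 5 CPM, 11 stood apart in replicate 4. The kinase gene mbk-2 did not. Its values were 222, 201, 305, 306 and 291 CPM, and replicates 3, 4 and 5 hardly differed.

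RNA-binding regulators of the oocyte and embryo were also highest in replicate 4. Of 34 such genes with a read, 30 were highest there, against 19.1% of the 9658 genes. In replicate 2, which is lowest for 26.5% of the 9658 genes, 24 were lowest. The deviations were -0.12, -0.59, -0.21, 1.23 and -0.16, a range of 1.81, or 0.48 without replicate 4 and 1.04 over members with a mean of at least 5 CPM. The translational regulator gene puf-5 was at 3.24, 0.171, 0.851, 47.5 and 0.867 CPM, 14.7-fold higher in replicate 4 than in replicate 1. The gene mex-5, which helps polarize the embryo, was at 2.83, 0.341, 0.568, 35.8 and 0.667 CPM. The embryonic fate gene pos-1 was at 3.83, 0.682, 1.42, 30.8 and 1.73 CPM. All 3 were lowest in replicate 2. A regulator of earlier germ cells, gld-1, was at 6.99, 2.81, 5.96, 36.6 and 3.60 CPM, with a smaller gap of 5.23-fold. The meiotic spindle gene mesp-1 reached 22.9 CPM in replicate 4, and replicate 1 was next at 1.83 CPM. The genes puf-5, mex-5, pos-1 and mesp-1 passed the mean of 5 CPM only through replicate 4.

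Germline genes outside the oocyte were also highest in replicate 4. Of 28 P granule and small RNA genes with a read, 22 were highest in replicate 4 and 18 lowest in replicate 2. Over the 9658 genes these shares were 19.1% and 26.5%. The list's deviations were -0.07, -0.51, -0.24, 0.87 and -0.03, a range of 1.38, or 0.35 without replicate 4. The P granule scaffold gene pgl-1 was at 5.08, 2.39, 4.54, 29.996 and 4.33 CPM. The nuclear Argonaute gene hrde-1 was at 8.07, 3.75, 7.66, 45.9 and 10.1 CPM. Replicate 4 stood 4.53-fold above the next library for hrde-1, and replicate 2 was lowest. The germline Argonaute gene wago-1 was at 10.4, 6.40, 9.46, 48.4 and 9.73 CPM. The germline Notch receptor gene glp-1 was read in every library, at 25.8, 22.8, 35.2, 49.2 and 30.5 CPM, so germline transcripts were not limited to replicate 4. Meiotic chromosome genes had deviations of -0.03, -0.34, -0.18, 0.47 and -0.04. Their range was 0.82, or 0.33 without replicate 4 and 0.37 over members averaging 5 CPM or more. Of the 37 genes, 31 were highest in replicate 4, against 19.1% of the 9658 genes. In the list 11 had a mean of at least 5 CPM, and none of the 11 varied 4-fold. The synapsis gene syp-2 was not among those 31, at 12.9, 12.9, 6.90, 12.55 and 8.13 CPM.

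Genes of dividing cells had the same top and bottom libraries. Of 53 cell division genes with a read, 44 were highest in replicate 4 and 41 lowest in replicate 2. Over the 9658 genes these shares were 19.1% and 26.5%. The list's deviations were -0.11, -0.41, -0.02, 0.59 and -0.07, a range of 0.995, or 0.35 without replicate 4. The mitotic cyclin gene cyb-3 was at 3.99, 2.73, 3.69, 20.6 and 2.2003 CPM, and passed the mean of 5 CPM only through replicate 4. The mitotic kinase gene cdk-1 was at 8.82, 4.18, 5.77, 17.997 and 7.27 CPM. Of 40 DNA replication genes, 36 were highest in replicate 4, against 19.1% of the 9658 genes. The list's deviations were -0.06, -0.39, -0.05, 0.52 and -0.05, a range of 0.91, or 0.36 without replicate 4. The replicative helicase gene mcm-2 was at 4.99, 2.73, 4.63, 17.3 and 6.87 CPM. The gene rnr-1, which encodes the large subunit of ribonucleotide reductase, was at 9.24, 5.72, 8.89, 30.3 and 11.4 CPM. Replicate 4 exceeded every other library in each of these 4 genes, and replicate 2 was lowest in all but cyb-3, where replicate 5 was.

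Sperm transcripts stayed low in every library. The 87 sperm genes summed to 81.04, 78.1, 92.7, 91.5 and 89.8 CPM, and 49 of them had a read at all. Replicate 4 was the highest library for 13 of the 49, against 19.1% of the 9658 genes. Yolk protein genes, which the adult intestine transcribes, had few reads. The vit-2 counts in replicates 1 to 5 were 9, 11, 9, 80 and 9. Those of vit-5 were 2, 2, 5, 61 and 3, and replicate 4 was highest for both. Counts of vit-6 were 9, 11, 7, 18 and 23, with replicate 5 highest. The genes vit-1 and vit-3 had at most 2 counts in any library, and vit-4 had none. Reads of vit-3, vit-4 and vit-5 are uncertain because these genes are near-identical. Over the 3 vit genes that averaged 1 CPM or more, the deviations were -0.52, -0.37, -0.35, 1.98 and -0.58. Of these 3, vit-2 and vit-5 reached that mean only through replicate 4, so the high deviation there follows in part from the filter. Genes for proteins secreted into the uterine lumen differed among themselves. Over the 4 with a mean of at least 1 CPM, the deviations were 0.35, -0.93, 0.27, 1.58 and -0.67, a range of 2.504, or 1.41 without replicate 4. The gene ule-3 was at 8.65, 0.768, 5.49, 31.9 and 1.33 CPM. Transcripts of ule-4 were at 14.1, 4.69, 8.61, 35.6 and 6.87 CPM and those of ule-1 at 1.83, 2.64, 6.62, 14.998 and 3.13 CPM. Replicate 4 was highest for these 3. Replicate 1 was highest for ule-5, with counts of 19, 1, 6, 11 and 2. Replicate 3 was highest for ule-2, with counts of 26, 5, 31, 23 and 7. The part of reproductive-stage animals or tissues in the level of oocyte genes in replicate 4 was not tested.

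Further genes shared the high replicate 4. The small heat shock gene sip-1, known for expression in oocytes and embryos, was at 25.5, 14.2, 24.2, 114.98 and 24.4 CPM, although a gene overlaps it on the other strand. A run of 4 neighbouring genes on chromosome X, ZK813.3, ZK813.2, ZK813.7 and ZK813.1, spanned 3441839 to 3446935 in WBcel235. Each was highest in replicate 4, and ZK813.1 was at 4.99, 2.05, 4.92, 27.9 and 1.87 CPM. It passed the mean of 5 CPM only through that library.

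**Figure D3:**
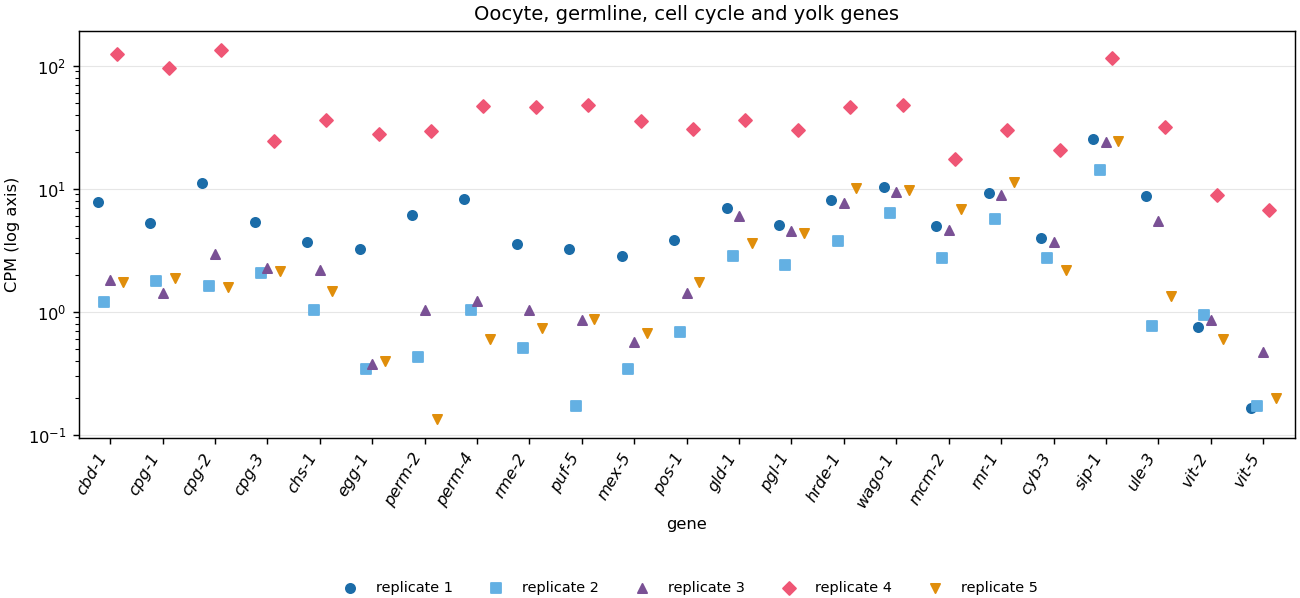
CPM on a log axis of 23 oocyte, germline, cell cycle, uterine and yolk genes in each chd-7;daf-2 replicate, with 1 symbol per library. The genes are a chosen set, and vit-6, ule-2, ule-5 and syp-2, which were not highest in replicate 4, are not plotted. Replicate 4 (pink diamonds) is highest for every gene chosen. Replicate 1 (dark blue circles) is second for most of the eggshell genes at the left, such as cbd-1 at 7.74 CPM.

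A set of cuticle genes was nearly silent in replicates 3 and 4 and present in replicates 1, 2 and 5. Collagens are the main structural proteins of the cuticle, and the stages differ in the set they make. Counts of the collagen gene col-43 in replicates 1 to 5 were 297, 208, 2, 0 and 269. The collagen gene col-36 was at 24.2, 27.4, 0.757, 1.11 and 27.4 CPM. Values of col-158 were 29.8, 26.2, 3.88, 0.778 and 45.3 CPM, although a gene overlaps it on the other strand. The collagen gene rol-8, whose mutants roll, was at 14.9, 11.7, 0.568, 0.667 and 13.7 CPM. These 4 separated replicates 3 and 4 from the other 3 without overlap. Genes not named as collagens had the same split. Counts of T05H10.3 were 223, 94, 3, 0 and 161. Levels of C13A2.12 were 46.3, 19.1, 3.97, 1.89 and 18.6 CPM. The chemoreceptor gene srh-92 was at 11.9, 10.9, 2.55, 4.44 and 12.602 CPM. All 3 were lower in replicates 3 and 4 than elsewhere.

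Other cuticle genes were lowest in replicate 4, and several of them had replicate 3 next. The dauer collagen genes col-2 and col-40 given above belong here. A further collagen gene, col-37, was at 8.82, 13.8, 10.0, 1.44 and 9.80 CPM, and a gene overlaps it. The hedgehog-related gene grl-20 was at 8.65, 6.74, 1.80, 0.111 and 7.80 CPM. Its relative grl-25 was at 26.8, 23.5, 11.7, 4.11 and 24.1 CPM, with 4 annotated genes overlapping on the other strand. Another set was lowest in replicate 5 and highest in replicate 4. It held col-8, at 9.65, 10.9, 5.39, 15.7 and 1.27 CPM. It also held col-106, at 4.58, 8.02, 12.96, 23.4 and 2.27 CPM, and col-95, at 9.15, 9.72, 7.66, 21.1 and 3.33 CPM. Over the 147 collagen genes with a read, the highest library was replicate 5 in 47, replicate 2 in 39, replicate 1 in 25 and replicates 3 and 4 in 18 each. Over the 9658 genes these shares were 29.1% for replicate 5, 14% for replicate 2, 13.9% for replicate 1, 23.9% for replicate 3 and 19.1% for replicate 4, so the share of replicate 5 was near that of all genes. Of 43 collagen genes that averaged 5 CPM or more, 13 varied at least 4-fold, which is 30.2% against 2.04% of all genes. Replicate 5 was the highest library for 12 of these 43. The summed collagen level was 5244, 4831, 4565, 4874 and 3478 CPM, lowest in replicate 5. Near-identical collagen copies make single values uncertain.

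Replicate 5 held more transcripts of the pharynx, the feeding organ, which dauers keep idle. Of 22 pharynx genes with a read, 13 were highest in replicate 5, against 29.1% of the 9658 genes. The deviations in replicates 1 to 5 were -0.09, -0.14, -0.03, -0.35 and 0.64, a range of 0.98, or 0.32 without replicate 5. The pharyngeal myosin gene myo-1 was at 12.4, 14.3, 10.6, 5.89 and 38.3 CPM. The second pharyngeal myosin gene, myo-2, was at 13.98, 14.5, 15.3, 7.11 and 32.8 CPM. A further myosin gene, myo-5, was at 10.98, 10.7, 9.74, 8.44 and 25.0 CPM. In all 3, replicate 5 was highest and replicate 4 lowest. For the pharyngeal troponin genes, replicate 1 was second. The troponin I gene tni-4 was at 17.8, 8.70, 11.6, 7.55 and 25.5 CPM. The troponin C gene tnc-2 was at 12.1, 6.06, 5.58, 6.11 and 18.4 CPM, and a gene overlaps it on the other strand. Body wall muscle varied far less. Its 47 genes with a read had deviations of -0.01, 0.01, -0.01, -0.06 and 0.04. The body wall myosin gene unc-54 was at 3089, 3118, 2374, 2689.9 and 2252 CPM, lowest in replicate 5.

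Genes of the epidermis, of moulting, of chemosensory cilia and of neuropeptide signalling were also highest in replicate 5 more often than the 29.1% of all genes. Replicate 5 was highest for 20 of 31 epidermis and seam genes with a read, for 18 of 37 moulting genes, for 35 of 48 cilia and chemosensory genes and for 44 of 68 neuropeptide genes. Their deviations in replicate 5 were 0.25, 0.17, 0.25 and 0.24. Without replicate 5 the range of the cilia list fell from 0.36 to 0.06 and that of the epidermis list from 0.38 to 0.18. The protease inhibitor gene mlt-11, needed for moulting, was at 2.25, 3.75, 2.55, 2.44 and 27.004 CPM, 7.20-fold above the next library. It overlaps 2 annotated genes, and passed the mean of 5 CPM only through replicate 5. The patched-related gene ptr-4, also needed for moulting, was at 6.99, 9.13, 7.66, 3.999 and 20.7 CPM. The hedgehog-related gene wrt-10 was at 6.66, 8.62, 5.30, 3.89 and 17.1 CPM. Replicate 5 was highest in all 3, and replicate 4 was lowest for ptr-4 and wrt-10. The gene let-805, whose protein anchors the epidermis to muscle, was at 89.3, 64.7, 130.2, 136 and 213 CPM. Intermediate filaments line the lumen of the intestine, and their gene ifb-2 was at 151, 142, 154, 164.98 and 288 CPM. The partner gene ifc-2 was at 76.8, 76.9, 109, 96.9 and 158.2 CPM, again highest in replicate 5.

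The pals genes, several of which are induced by intracellular pathogens, moved in both directions in replicate 5. Of 26 with a mean of at least 5 CPM, 5 stood above and 1 below in replicate 5, against 0.601% and 0.642% of all genes. The gene pals-33 was at 73.3, 84.6, 75.01, 87.3 and 293 CPM and pals-28 at 9.15, 13.9, 17.9, 16.2 and 53.1 CPM. The gene pals-1 was at 2.41, 3.75, 3.12, 3.89 and 12.1 CPM, and passed the mean of 5 CPM only through replicate 5. Replicate 5 was highest and replicate 1 lowest in all 3. By contrast pals-14 was at 191, 209, 163, 191 and 42.1 CPM, lowest in replicate 5. The regulator gene pals-22, which represses the response, was at 13.1, 14.8, 16.36, 19.4 and 16.1 CPM. Its antagonist pals-25 was at 10.2, 12.5, 11.8, 11.6 and 15.1 CPM. Neither varied 2-fold. A run of 3 neighbouring genes on chromosome V, B0507.7, B0507.10 and B0507.8, from 8757312 to 8762961 in WBcel235, shared the high replicate 5. Values for B0507.10 were 52.8, 64.3, 79.7, 79.9 and 341 CPM. Those for B0507.8 were 41.8, 52.3, 51.1, 51.2 and 206 CPM. Replicate 5 stood 4.27-fold above the next library for B0507.10.

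Other genes with a high replicate 5 came from several families. The gene Y71H2AR.2 was at 2.33, 3.75, 4.92, 3.67 and 44.6 CPM and D1086.3 at 6.32, 5.03, 7.09, 4.89 and 40.9 CPM. Of the pair, Y71H2AR.2 passed the mean of 5 CPM only through replicate 5. The insulin-like peptide gene ins-33 was at 4.16, 6.57, 2.46, 1.56 and 24.1 CPM, lowest in replicate 4. The secreted protein gene scl-12 was at 259.8, 431, 768, 762 and 1691 CPM. Its neighbour in the family, scl-11, was at 125, 214, 375, 358 and 788 CPM. Both were lowest in replicate 1, with replicates 3 and 4 close to each other.

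A gene of hormone synthesis in the dauer decision stood below the others in replicate 5. The gene daf-9 encodes the cytochrome P450 that makes dafachronic acid, the hormone that keeps larvae out of the dauer stage. It was read at 28.9, 32.9, 28.6, 27.1 and 6.13 CPM in replicates 1 to 5. Replicate 5 lay 4.42-fold below the next lowest, and the other 4 were close to each other. Transcripts of daf-12, the receptor for that hormone, were at 287, 287, 353, 337 and 349 CPM. The nuclear receptor gene nhr-8, which acts in the same pathway, was at 15.8, 14.6, 15.6, 17.2 and 7.93 CPM, also lowest in replicate 5. Of the 13 genes of the dafachronic acid list, 6 had a mean of at least 5 CPM, and daf-9 and nhr-8 were the ones that varied 2-fold. The TGF-beta ligand gene daf-7, which sensory neurons make in larvae that go on growing, was at 10.7, 5.63, 8.23, 3.67 and 16.9 CPM. It was highest in replicate 5 and lowest in replicate 4. The other 6 genes of the DAF-7 pathway varied less than 2-fold, and the list's deviations were -0.08, -0.06, 0.06, 0.04 and 0.00. None of the 21 genes of the DBL-1 pathway, the TGF-beta pathway that sets body size, varied 2-fold. The 15 insulin pathway genes also stayed under 2-fold.

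Single digestive, defence and storage genes were lowest in replicate 5, while lists of such genes went both ways there. The intestine list had deviations of -0.02, -0.04, 0.00, -0.06 and 0.19. Of its 36 members 20 were highest in replicate 5, against 29.1% of the 9658 genes. By contrast its summed level was lowest in replicate 5, at 2716, 2750, 2486, 2512 and 2397 CPM. Lysozyme and saposin-like genes summed to 2029, 2042, 2046, 2029 and 2325 CPM. The C-type lectin gene clec-60, of a family linked to defence, was at 202, 194, 264, 242 and 45.5 CPM. Another member, clec-63, was at 504, 532, 321, 369 and 135 CPM, and clec-62 was at 52.8, 49.05, 29.3, 28.1 and 9.47 CPM. Summed over all 243 C-type lectin genes, the level was 1635, 1657, 1576, 1605 and 1005 CPM. The sum was lowest in replicate 5, where the median deviation was -0.11. Replicate 5 was the highest library for 60 of 200 C-type lectin genes with a read, a share near the 29.1% of all genes. It was the lowest for 27 of the 200, against 22% of all genes. C-type lectin genes averaging 5 CPM or more numbered 27, and replicate 5 was highest for 8 and lowest for 10 of them. The cathepsin B-like protease gene cpr-2 was at 38.2, 27.98, 18.5, 13.3 and 2.87 CPM, 4.65-fold lower in replicate 5 than in replicate 4. The aspartyl protease gene asp-3 was at 576, 582, 396, 447 and 221 CPM. The ferritin gene ftn-1, for iron storage, was at 199, 191, 142, 141 and 86.1 CPM. Replicates 1 and 2 were highest for these 3. The glutathione S-transferase gene gst-22 was at 7.57, 8.79, 7.09, 8.22 and 1.53 CPM. The fatty acid and retinol binding gene far-2 was at 92.02, 88.9, 102, 161 and 41.4 CPM, highest in replicate 4. The gene lea-1, whose relatives protect dry tissue in plants, was at 1084, 858, 773, 870.3 and 531 CPM. Replicate 5 was the lowest library for all of them. The F-box gene fbxa-165 was at 9.15, 10.8, 9.46, 9.22 and 2.60 CPM, and replicate 5 was lowest for 46 of 156 fbxa genes with a read, against 22% of all genes.

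**Figure D4:**
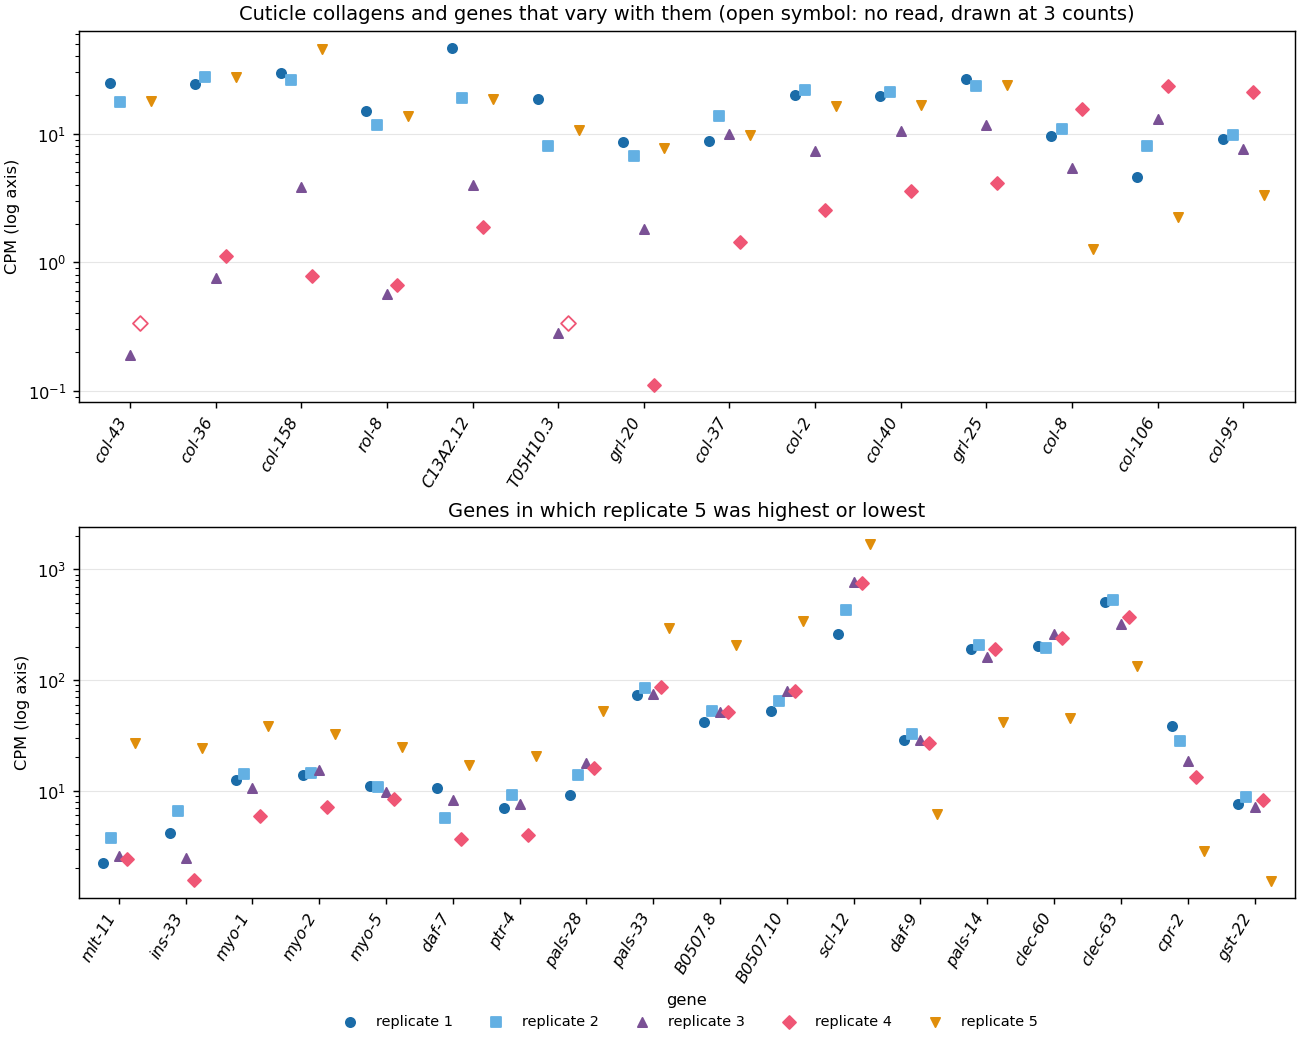
CPM on a log axis by chd-7;daf-2 replicate. Top, cuticle collagens and genes that vary with them, where replicates 3 and 4 (purple triangles and pink diamonds) are near or under 1 CPM for col-43 and rol-8; open symbols mark libraries with no read, drawn at 3 counts. Bottom, genes in which replicate 5 (orange) was highest, such as mlt-11 at 27.004 CPM, or lowest, such as daf-9 at 6.13 CPM.

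Genes for making sugar from fat split replicates 1 and 2 from replicates 3, 4 and 5. The glyoxylate cycle gene icl-1, which encodes isocitrate lyase and malate synthase in a single protein, was at 1008, 1131, 3491, 2982 and 3142 CPM in replicates 1 to 5. Replicates 1 and 2 were the lowest, with no overlap. Of 25 glyoxylate, gluconeogenesis and trehalose genes with a read, 17 were highest in replicate 3, against 23.9% of the 9658 genes. The deviations were -0.25, -0.29, 0.24, 0.18 and 0.07. Their summed level was 7650.2, 7861, 15331, 13537 and 11966 CPM. The enzymes that feed the pathway moved with it. The pyruvate carboxylase gene pyc-1 was at 459, 469.6, 1229.6, 1078 and 960.3 CPM. The fructose bisphosphatase gene fbp-1 was at 209, 230.2, 534, 460.0 and 359 CPM. The malate dehydrogenase gene mdh-1 was at 208, 189.5, 465, 389 and 325 CPM. In these 3, replicates 1 and 2 were again the lowest, and replicate 3 was the highest. The mitochondrial aconitase gene aco-2 was at 872, 1015, 1796, 1577 and 1522 CPM, with a gene overlapping on the other strand. For pck-1, which encodes the gluconeogenic enzyme phosphoenolpyruvate carboxykinase, the values were 475, 349, 1560.5, 1270.4 and 505 CPM. Here replicate 5 was close to replicates 1 and 2. The triosephosphate isomerase gene tpi-1 had the same split as pck-1, at 169, 177, 432, 316 and 190.4 CPM. Some fat genes had the split of icl-1, while the deviations of lists of fat genes did not. The fatty acid synthesis list had deviations of -0.03, -0.06, 0.16, -0.01 and -0.12, and the lipid use list of -0.10, -0.01, 0.12, -0.02 and -0.03. By summed level the lipid use list was lowest in replicates 1 and 2, at 4815, 5263, 7310, 6439 and 6203 CPM. The fatty acid synthesis list summed to 3763, 3605, 4231, 3761 and 3302 CPM, lowest in replicate 5. The acyl-CoA synthetase gene acs-2, which acts in fat oxidation, was at 309.8, 511, 1404, 1312 and 1301 CPM. The desaturase gene fat-5 was at 15.7, 27.4, 79.0, 60.1 and 54.6 CPM. The acetyl-CoA synthetase-like gene acs-19 was at 256, 265, 675, 549 and 387 CPM. All 3 were lowest in replicates 1 and 2.

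Most genes of a hypoxia response list were highest in replicate 3. This list of 9 genes was drawn up after the values were seen. Its deviations in replicates 1 to 5 were -0.42, -0.55, 0.61, 0.43 and -0.13. In it 8 of 9 genes were highest in replicate 3, against 23.9% of the 9658 genes. Because of how the list was drawn up, that count cannot be read against that share. The prolyl hydroxylase gene egl-9, which senses oxygen and is itself a target of the HIF-1 factor, was at 93.9, 83.5, 287, 219.6 and 118 CPM. The collagen prolyl hydroxylase gene phy-2 was at 25.29, 28.1, 135, 66.9 and 44.9 CPM, 2.02-fold above the next library. The cysteine synthase-related gene cysl-2 was at 327, 254, 664, 565 and 226 CPM. Replicate 4 was second for these 3. The gene F22B5.4 was at 3.99, 3.58, 15.04, 10.6 and 3.47 CPM. The gene rhy-1, which restrains HIF-1, was at 20.5, 7.25, 25.25, 25.11 and 15.6 CPM, lowest in replicate 2, and a gene overlaps it on the other strand. The hif-1 gene itself was at 848, 873, 1258, 1098 and 917 CPM. Its regulator vhl-1, part of the ligase that marks HIF-1 for decay, was at 13.1, 13.4, 10.6, 12.4 and 13.1 CPM and varied little.

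A cluster of detoxification genes had the opposite order. A group of 5 UDP-glucuronosyltransferase genes, whose enzymes add a sugar to small molecules, lies on chromosome V from 4887165 to 4911399 in WBcel235. All 5 were higher in replicates 1 and 2 than in the other 3. The gene ugt-8 was at 218, 221, 30.3, 47.5 and 43.1 CPM. Its neighbour ugt-12 was at 185, 203, 97.9, 78.2 and 52.01 CPM, and ugt-13 was at 233, 282, 119.9, 123 and 83.1 CPM. The remaining members, ugt-9 and ugt-14, had 72.7, 65.5, 36.8, 35.6 and 27.004 CPM and 113, 127, 86.6, 68.2 and 55.2 CPM. The split was widest for ugt-8, with a fold range of 7.30, and narrowest for ugt-14, with 2.29. Neighbouring ugt genes may share sequence, and reads that fit several places were not counted.

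The metallothionein gene mtl-1 and the superoxide dismutase gene sod-3, both known targets of DAF-16, were lowest in replicates 3 and 4, as the silent collagens were. Values of mtl-1 were 1247, 1170.5, 624, 769.9 and 1310.1 CPM. Those of sod-3 were 45.2, 37.6, 24.6, 29.3 and 50.1 CPM, with a gene overlapping on the other strand. The 26 genes averaging 1 CPM or more in the oxidative stress and DAF-16 target list had deviations of 0.01, -0.05, -0.04, 0.01 and 0.10, so the list as a whole did not share the split.

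Heat shock genes were lowest in replicate 2. Of 19 with a read, 13 had their lowest value there, against 26.5% of the 9658 genes. The deviations were -0.03, -0.30, 0.17, 0.22 and 0.01, a range of 0.52, or 0.30 without replicate 2. The chaperone gene hsp-110 was at 335, 160.1, 579, 663 and 458 CPM. The inducible chaperone gene F44E5.5 was at 4.41, 1.11, 8.32, 11.2 and 7.40 CPM. The small heat shock genes hsp-43 and hsp-16.41 had 103, 55.5, 128, 150.0 and 125 CPM and 178, 97.1, 203, 257 and 151 CPM. Replicate 4 was highest and replicate 2 lowest for these 4. The constitutive chaperone gene hsp-1 had the same order with a fold range of 1.40, at 1976, 1777, 2323, 2481 and 2143 CPM. The nuclear hormone receptor gene nhr-17 was also lowest in replicate 2, at 268, 79.8, 439, 453 and 176 CPM, and overlaps the neuropeptide gene nlp-76.

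**Figure D5:**
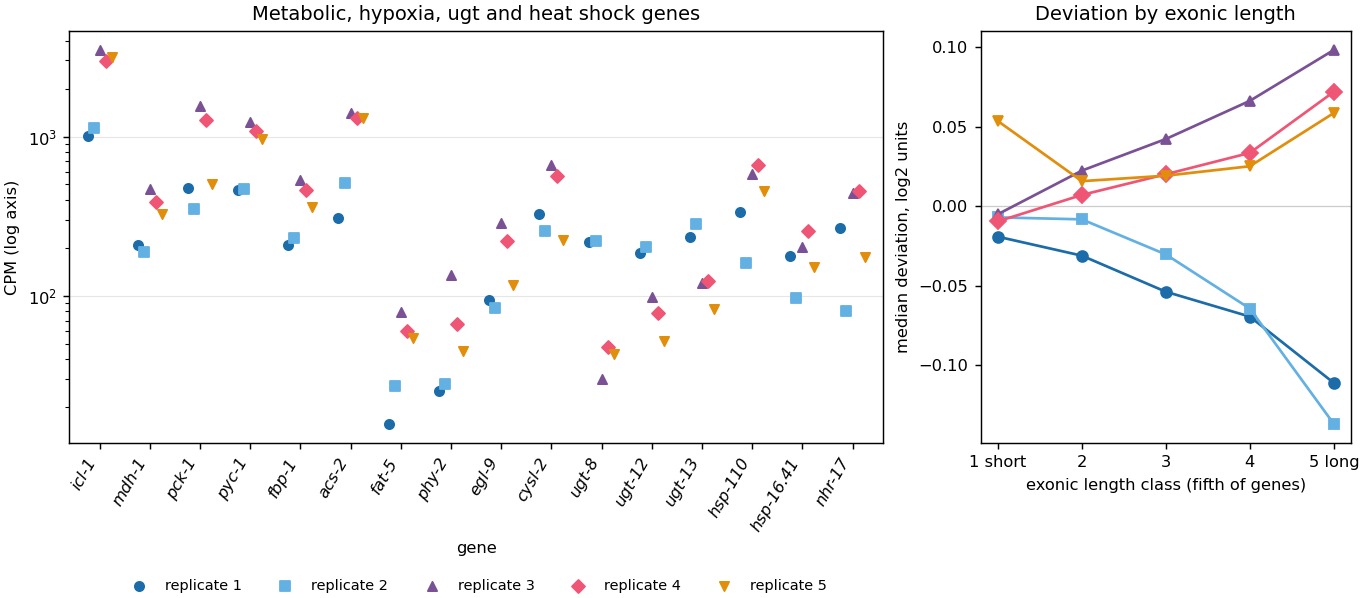
Left, CPM on a log axis of metabolic, hypoxia, ugt and heat shock genes in each chd-7;daf-2 replicate; replicates 1 and 2 (blue) are lowest for icl-1 and highest for ugt-8. Right, median deviation in log2 units of genes in 5 classes of exonic length, from short to long; it falls to -0.11 and -0.14 in replicates 1 and 2 for the longest class and rises to 0.10 in replicate 3.

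Gene length moved with the split between replicates 1 and 2 and the other libraries. Of the 9658 genes, 9531 had an annotated exonic length and were placed in 5 classes of near equal size. In the class of 2582 bases or more, the median deviations in replicates 1 to 5 were -0.11, -0.14, 0.10, 0.07 and 0.06. In the class of 881 bases or less they were -0.02, -0.01, 0.00, -0.01 and 0.05. The 126 genes that were high in replicates 3, 4 and 5 and had a length had a median of 1766 bases. That of the 75 genes high in replicates 1 and 2 was 1366 bases, and that of all genes was 1524 bases. Several very long muscle genes were lower in replicates 1 and 2, unlike unc-54 above. The gene unc-22, which encodes the giant protein twitchin, was at 69.1, 56.0, 141, 106.3 and 162 CPM, and 3 genes overlap it. The titin gene ttn-1 was at 86.6, 61.5, 117, 122 and 162 CPM. The calcium release channel gene unc-68 was at 184, 168, 328, 269 and 338 CPM. All 3 were lowest in replicate 2. Long genes of the basement membrane were similar. The perlecan gene unc-52 was at 44.3, 38.5, 79.5, 65.4 and 90.2 CPM. The laminin gene epi-1 was at 20.97, 20.9, 52.4, 38.4 and 52.8 CPM. The shares of reads aligned to several places and of reads outside genes were highest in replicate 1, as given above. The part of length and of these shares in the metabolic split was not tested.

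Positions of the varying genes were uneven over the chromosomes. Chromosome V held 19.6% of the genes with a position, 39.7% of the 58 that stood above in replicate 5 and 32.8% of the 61 with a position that stood below there. Chromosome X held 14.2% of all and 7.22% of the 97 that stood above in replicate 4. A gene that stood above in replicate 1 was the kinesin gene klp-6, at 23.5, 5.89, 2.36, 3.999 and 3.47 CPM. It shares exonic bases with C45G9.6, which was at 97.8, 108, 136, 115.2 and 125 CPM.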

How the data were processed

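Per the labels, RNA of dauers was measured by RNA-seq, and the 5 chd-7;daf-2 libraries were used here out of 10. The deposited files hold raw read counts per gene made by the authors, 1 table per library, whose closing lines count the reads left out of genes. The submitters' processing notes name HTSeq 0.9.1 and STAR 2.5.4a, and also DESeq2 1.20.0 and FastQC 0.11.5. The genome build, annotation release and strand setting were not given in the sources used here, so genes that overlap on opposite strands are uncertain. Reads aligned to several places were not counted, which makes near-identical genes uncertain.

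CPM was computed from the deposited counts over gene rows only. The rows that name no gene held reads outside genes, ambiguous reads (2.07% to 2.30%) and reads aligned to several places. Genes that averaged 5 CPM or more entered the counts of varying genes, with a few rarer ones (vit, ule and col-19) given by value, and list members with a mean of at least 1 CPM entered the deviations, on log2(CPM + 1). A library tied with another, such as at 0, was counted as neither highest nor lowest. Shares over the 9658 genes cover genes averaging 5 CPM or more, while counts over list members with a read also hold rarer genes. Replicate 5 had the most counts, so rare genes can be read there alone. The part of depth in those counts was not tested. Fold ranges set values under 3 counts to 3 counts. Intervals are exact Poisson 95% intervals and cover counting error only. Dispersion came from edgeR 4.0.16 in R 4.3.3 with an intercept alone, and other steps used Python 3.11.15 with pandas 2.3.3 and scipy 1.17.1. Gene positions, exonic lengths and overlaps of at least 50 bases came from the Ensembl release 115 annotation of WBcel235, which matched 9531 of 9658 genes (98.7%). Steps across genes were tested on simulated counts that held counting error only. That test does not show how often genes vary or stand apart at the wider spread of these libraries. No test between groups was made. Alternatives were TMM scaling, DESeq2 1.42.0 size factors, leaving out the 20 genes with the most reads, other filters, other pseudocounts and leaving out each library.

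The members and the 50 gene lists were chosen with earlier results of these data known. Genes were named from these sets: the 12 with the highest mean, the 30 with the widest spread, the 6 with the largest gap per library and direction, the leading and most variable members of each list, the 10 steadiest, chd-7, daf-2, daf-7, daf-9 and daf-12, and all vit and ule genes. The text gives a part of them. Of the genes named, 37 fall outside these sets and were chosen after their values were seen: B0507.7, B0507.8, C45G9.6, F22B5.4, ZK813.1, ZK813.2, ZK813.3, ZK813.7, aco-2, cdk-1, clec-62, col-106, col-19, col-95, cpg-3, cysl-2, egl-9, gld-1, glp-1, hif-1, hsp-12.6, hsp-16.41, ifb-2, ifc-2, lea-1, mdh-1, myo-5, pals-1, pals-22, pals-25, rhy-1, rps-25, scl-11, scl-12, tpi-1, ugt-14 and vhl-1.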

Additional observations from a re-analysis of the deposited data

Results flagged for a closer look

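For each measure named in the report, the gap between the highest or lowest of the 5 libraries and its nearest neighbour was divided by the range over all 5. Values above 0.71, Dixon's 95% critical value for 5 samples, are given here. Chance gives such a value in about 1 in 20 measures. The 147 genes examined were mostly chosen because they vary, so the 48 of them beyond the critical value cannot be read against that share. Of 51 lists 5 were beyond it, and of 9 library measures 1. The lists were chosen with earlier results of these data known, and the hypoxia list after the values were seen. Their count therefore cannot be read against that share either.

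The share of reads aligned to several places was high in replicate 1, with a gap of 0.936 of the range. Among the lists, replicate 4 was high for the oocyte and germline RNA-binding genes (0.745) and the vitellogenin genes (0.909). Of the vitellogenin genes, vit-2 and vit-5 passed the mean of 1 CPM only through replicate 4. Replicate 5 was high for the intestine genes (0.745) and the cilia and chemosensory genes (0.859), and low for the C-type lectin genes (0.865). The summed level of the intestine genes, however, was lowest in replicate 5.

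In replicate 1, 0.834 of the range was the gap for klp-6.

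Genes high in replicate 4 had gaps, as shares of the range, of 0.96 for cpg-1, 0.959 for vit-2, 0.954 for vit-5, 0.948 for cbd-1, 0.935 for puf-5, 0.932 for rme-2, 0.93 for mex-5 and 0.928 for mesp-1. Further gaps in replicate 4 were 0.928 for cpg-2, 0.925 for chs-1, 0.921 for gfat-2, 0.905 for wago-1, 0.903 for pgl-1, 0.902 for cyb-3, 0.895 for pos-1 and 0.895 for egg-1. Smaller gaps in the same library were 0.888 for sip-1, 0.88 for ZK813.1, 0.876 for ZK813.3, 0.876 for gld-1, 0.855 for cpg-3, 0.849 for hrde-1, 0.839 for ZK813.7 and 0.836 for perm-4. The lowest of these gaps were 0.795 for perm-2, 0.773 for ZK813.2, 0.769 for rnr-1, 0.747 for ule-3 and 0.717 for mcm-2. Most are oocyte, germline or cell division genes.

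Genes high in replicate 5 had gaps of 0.939 for Y71H2AR.2, 0.939 for D1086.3, 0.939 for mlt-11, 0.936 for pals-33, 0.936 for B0507.8, 0.906 for B0507.10 and 0.876 for B0507.7. The remaining high genes there had gaps of 0.847 for myo-5, 0.847 for pals-1, 0.842 for ifb-2, 0.801 for pals-28, 0.778 for ins-33 and 0.74 for myo-1. Genes low in replicate 5 had gaps of 0.796 for fbxa-165, 0.783 for daf-9, 0.767 for gst-22, 0.723 for pals-14 and 0.716 for nhr-8.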

How the results depend on the processing

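The filter on low values moved the counts most. The number of genes varying at least 4-fold was 197 as reported, 927 with no filter and 47 with a mean of at least 20 CPM. Genes standing apart in 1 library numbered 240, 948 and 63 under the same settings. Those above in replicate 4 numbered 97, 352 and 5, and 48 with a median of at least 5 CPM, a filter chosen after the values were seen. Genes above in replicate 5 numbered 58, 224 and 21, and genes below in replicate 5 numbered 62, 135 and 30. The share of the first principal component was 44.7%, and 56.9% with a mean of at least 20 CPM. When each library was left out in turn, genes varying at least 4-fold ranged from 101 (without replicate 4) to 197, genes standing apart from 162 to 323 and the first component from 45.4% to 64.1%. TMM scaling, DESeq2 size factors and leaving out the 20 genes with the most reads gave 188, 189 and 195 varying genes, of which 179, 181 and 193 were shared with the 197. None of the 441 fold ranges of named genes recomputed under these scalings moved. Of 254 list results recomputed under other scalings, pseudocounts or member filters, 13 moved. When a library was left out, 44 of 254 list results moved, and 619 of 735 fold ranges did not, so the remainder moved. No paired analysis was possible because all 5 libraries belong to 1 group.

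Precision is limited by depth in genes of few reads, where 3 counts equal 0.200 to 0.333 CPM.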

Other observations

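The 7 DAF-7 pathway genes had a median CV of 9.33% and the 21 DBL-1 pathway genes one of 11.6%, against 14% over the 9658 genes. Nuclear pore genes, of which 24 were measured, had deviations of -0.20, -0.21, 0.16, 0.21 and 0.08, lowest in replicates 1 and 2. The 12 mitochondrially encoded genes had deviations of 0.15, 0.10, -0.04, -0.27 and 0.14. Of the 12, 11 were lowest in replicate 4, against 12.9% of the 9658 genes. Without replicate 4 the range of these deviations fell from 0.42 to 0.20. Insulin-like peptide genes, 17 of which averaged at least 1 CPM, had deviations of 0.02, -0.21, 0.12, -0.33 and 0.36, highest in replicate 5, with a range of 0.70, or 0.39 without replicate 5. Receptors of the chemoreceptor families, mostly expressed in few neurons, were highest in replicate 5 in 394 of 1122 with a read. However, 176 of them averaged at least 1 CPM, and replicate 5 has the most counts. Of the 41 receptors averaging 5 CPM or more, 18 were highest in replicate 5, against 29.1% of the 9658 genes.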
